A study of Mus musculus with 6 samples.

Results

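The genes described here are 9 genes known from upper-layer and callosal projection neurons of the cortex, *Cux1*, *Cux2*, *Rorb*, *Rasgrf2*, *Pou3f1*, *Pou3f2*, *Pou3f3*, *Lhx2* and *Mdga1*. They were taken by symbol from the 21667 named genes of each table, with earlier results of these data known, and all 9 were found. RNA of the somatosensory cortex was sequenced from 3 control and 3 *Mef2c* cKO male mice of a mixed SVeV-129 and C57BL/6J background. Both genotypes are homozygous for the floxed *Mef2c* allele (Mef2cfl/fl), and the cKO mice carry Emx1-Cre in addition, while the controls are Cre-negative littermates. Replicate 1 of each genotype was 14 weeks old, and replicates 2 and 3 were 12 weeks old. Cre driven from *Emx1* acts in most excitatory neurons of the neocortex and hippocampus and in some glia, and not in cortical interneurons, so that the tissue still holds many cells with intact *Mef2c*.

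MEF2C is a transcription factor of the MADS family that is abundant in cortical neurons. The neocortex is built in layers from the inside out. The late-born neurons of layers 2 and 3 send many of their axons through the corpus callosum to the other hemisphere, and the neurons of layer 4 receive the thalamic input, which in somatosensory cortex arranges them in barrels. *Cux1* and *Cux2* encode homeodomain proteins of these layers that shape dendrites and spines, *Rorb* encodes an orphan nuclear receptor of layer 4, and the POU domain factors *Pou3f2* and *Pou3f3* act in the production and migration of upper-layer neurons. *Lhx2* encodes a LIM homeodomain protein that sets cortical identity in progenitors and is kept on in upper-layer neurons.

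The values are reads recovered from the deposited RPKM and scaled to a common sample total with no length (CPM), since the length behind an RPKM value differed from table to table for the same gene. Totals ranged from 19326365 to 54128334 reads per mouse. A gene entered the test with a CPM above 0.5 in all mice of at least 1 genotype. It was called at an adjusted p-value from limma (Benjamini-Hochberg over the 14609 genes tested) below 0.05 together with a log2 fold change, taken on log2(CPM + 0.1), of more than 0.3 in either direction. All 9 genes passed the filter on low values in both genotypes, with 135 to 9635 reads per gene and mouse. Over all genes tested, 13.7% were called in either direction, and the median log2 fold change was 0.008. No library stood apart from its genotype across genes, with Pearson's r over the 14609 genes (log2 values, not independent replicates) of 0.992 to 0.995 for mice of the same genotype, against 0.978 to 0.981 for mice of different genotypes. The limma p-values set a difference against the spread between these 6 mice. For this the variance of each gene was drawn toward a trend over all genes tested, so these p-values rest partly on other genes.

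The targeted gene itself had 800, 772 and 800 CPM in control replicates 1, 2 and 3 and 1231, 1276 and 1468 CPM in *Mef2c* cKO replicates 1, 2 and 3. The reads over the whole *Mef2c* gene were therefore higher in all cKO mice (log2 fold change 0.74, SE 0.07, limma adjusted p = 1.8e-04). Cre removes only the floxed part of the gene, so a count over the whole gene does not check the deletion, and reads on the deleted part alone were not analysed here. On the tissue label, the excitatory neuron marker *Slc17a7*, a vesicular glutamate transporter, had 1191 ± 48.3 CPM (SD, n = 3) in controls and 1241 ± 47.2 CPM (SD, n = 3) in cKO mice.

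Of the 9 genes, 5 were decreased in *Mef2c* cKO cortex (*Rasgrf2*, *Cux2*, *Rorb*, *Cux1* and *Lhx2*), 3 were increased (*Mdga1*, *Pou3f1* and *Pou3f3*) and *Pou3f2* did not pass. Of all genes tested, 7.78% were called decreased and 5.88% increased. In the same 8 genes the 2 genotypes did not overlap, against 33.8% of all genes tested (17.5% with all cKO mice below all controls and 16.3% with all above). Since the 9 genes were chosen with earlier results of these data known, these counts beside the shares are a description. An exact two-sided permutation test over the mice gave p = 0.1 for each of these 8 genes, the smallest p that 3 mice against 3 allow. In bulk tissue, fewer cells of a type and less RNA per cell cannot be told apart.

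**Figure D1:**
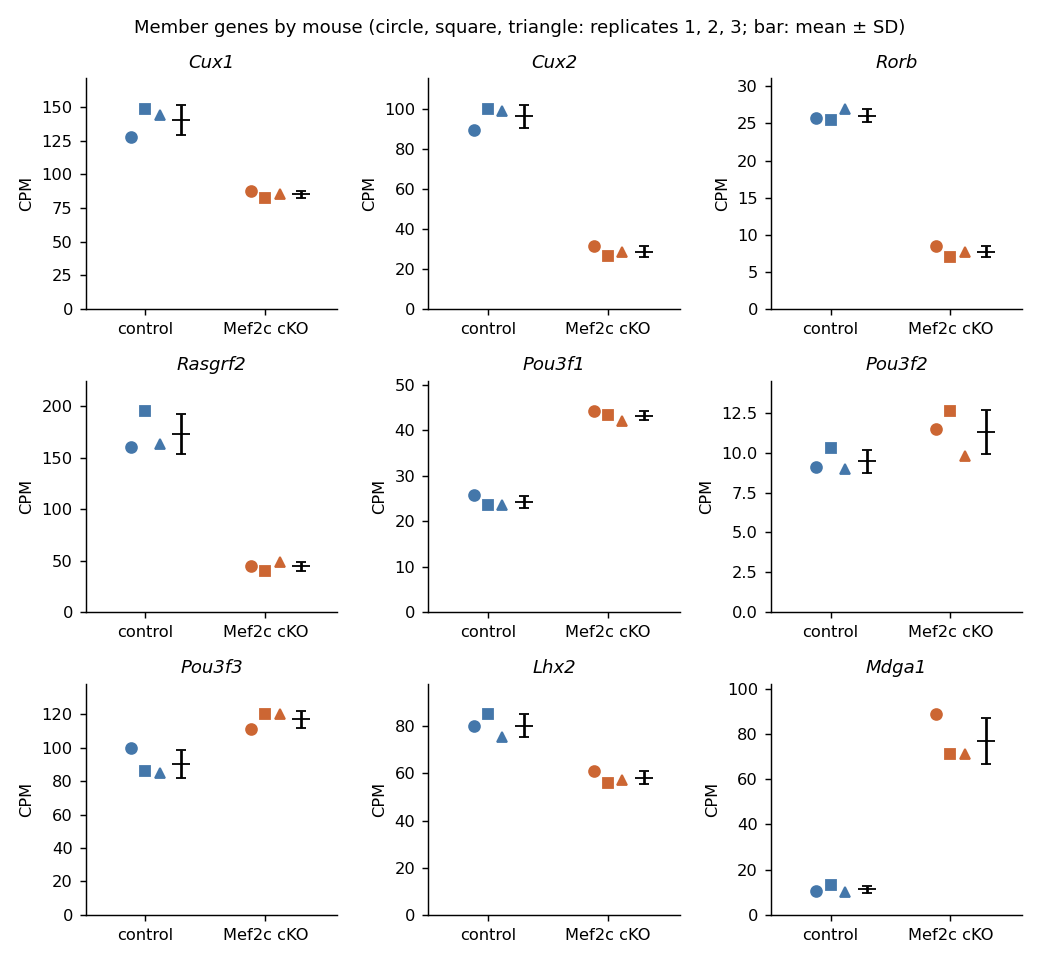
CPM of the 9 genes in each mouse, with the mean ± SD of each genotype (n = 3) as a bar and each axis starting at 0. *Rasgrf2*, *Cux2* and *Rorb* lie far lower in all 3 Mef2c cKO mice, *Mdga1* lies far higher, and the genotypes overlap in *Pou3f2* alone.

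The promoters of the 4 genes with the widest differences are shown, since the results turn most on these genes. They are RefSeq sequences of GRCm38.p6, a later build than that of the deposited tables, from 250 bases before to 50 bases after an annotated start, read 5′ to 3′ on the strand of the gene. Where a gene has several starts in that table (*Cux2* and *Rorb*), the window richer in G and C is printed. Capitals mark a GC box, GGGCGG on either strand. The *Cux2* window lies at chr5:122049802-122050101 on the minus strand, that of *Rorb* at chr19:19111147-19111446 on the minus strand, that of *Rasgrf2* at chr13:92131779-92132078 on the minus strand and that of *Mdga1* at chr17:29887833-29888132 on the minus strand.
Cux2: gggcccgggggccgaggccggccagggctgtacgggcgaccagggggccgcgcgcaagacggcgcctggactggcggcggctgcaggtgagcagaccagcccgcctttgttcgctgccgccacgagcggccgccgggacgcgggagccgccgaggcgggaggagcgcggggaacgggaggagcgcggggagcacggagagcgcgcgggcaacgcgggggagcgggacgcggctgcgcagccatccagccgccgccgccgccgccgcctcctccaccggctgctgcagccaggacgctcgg
Rorb: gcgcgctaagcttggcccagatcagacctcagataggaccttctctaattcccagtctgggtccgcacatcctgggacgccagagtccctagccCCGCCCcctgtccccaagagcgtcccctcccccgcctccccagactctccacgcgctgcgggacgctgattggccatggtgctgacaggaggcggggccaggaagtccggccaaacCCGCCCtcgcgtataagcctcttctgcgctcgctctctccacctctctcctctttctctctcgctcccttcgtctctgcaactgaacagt
Rasgrf2: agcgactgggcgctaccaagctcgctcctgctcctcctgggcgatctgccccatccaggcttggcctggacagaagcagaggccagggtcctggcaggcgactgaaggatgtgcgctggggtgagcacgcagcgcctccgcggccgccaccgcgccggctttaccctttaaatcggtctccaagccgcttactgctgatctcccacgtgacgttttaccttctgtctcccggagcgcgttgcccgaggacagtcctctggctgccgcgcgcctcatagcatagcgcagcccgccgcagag
Mdga1: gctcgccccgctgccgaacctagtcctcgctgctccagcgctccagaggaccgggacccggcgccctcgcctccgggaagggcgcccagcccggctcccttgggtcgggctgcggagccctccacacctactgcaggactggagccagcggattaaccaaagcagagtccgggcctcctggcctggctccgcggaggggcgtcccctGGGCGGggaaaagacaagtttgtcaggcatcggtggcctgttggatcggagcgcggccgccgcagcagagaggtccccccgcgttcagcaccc

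The share of G and C was 66% in the *Rasgrf2* window and 71.3% in that of *Mdga1*, where the median over the 32851 promoters of the table was 52.7%. It was 80.3% in the printed *Cux2* window and 56.7% in the other, and 63.7% in the printed *Rorb* window and 41% in the other, and since the richer window was printed, these shares describe the choice. The printed window of *Rorb* held 2 GC boxes and that of *Mdga1* held 1. Of the 9 genes, 8 were found in the table, with 11 promoters. The consensus of the MEF2 response element, searched on both strands, matched in 0 of these 11 and in 3.19% of all promoters of the same length. The GC box matched in 5 of 11 and in 35.7% of all, CCAAT in 3 of 11 and in 37.4%, the E-box CACGTG in 1 of 11 and in 7.15%, and TATAAA, which can overlap the MEF2 consensus, in 1 of 11 and in 13.6%. A match is a description of the letters in this window, and most regulatory sequence of a gene lies outside it.

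*Rasgrf2* showed the widest decrease. It encodes a calcium-responsive exchange factor that activates Ras and Rac and marks layers 2 and 3 in adult cortex. It had 160, 195 and 163 CPM in control replicates 1, 2 and 3 and 45, 39.6 and 48.6 CPM in *Mef2c* cKO replicates 1, 2 and 3. The highest cKO mouse thus lay far below the lowest control. The means were 173 ± 19.3 CPM (SD, n = 3) and 44.4 ± 4.53 CPM (SD, n = 3), so that cKO cortex held 25.7% of the control level (log2 fold change -1.96, SE 0.10, limma adjusted p = 3.2e-06), and only 70 of the 14609 genes tested had a more negative log2 fold change. The gene occupies chr13:92020005-92901611 of mm9 (minus strand).

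Its paralog *Rasgrf1*, an exchange factor of the same kind, moved the other way. It rose from 504 ± 28.3 CPM (SD, n = 3) to 760 ± 30.2 CPM (SD, n = 3) (log2 fold change 0.59, SE 0.06, limma adjusted p = 2.4e-04), with all cKO mice above all controls.

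*Cux2* and *Cux1*, at chr5:122308396-122500111 and chr5:136724005-137043301 of mm9 (both minus strand), were both decreased. *Cux2* had 89.5, 100 and 98.7 CPM in control replicates 1, 2 and 3 and 31.4, 26.4 and 28.3 CPM in the cKO replicates. All cKO mice were below all controls, at 29.9% of the control mean (log2 fold change -1.74, SE 0.08, limma adjusted p = 2.4e-06). *Cux1* had 128, 149 and 144 CPM in the controls and 88, 82.4 and 85.4 CPM in the cKO mice. Here too the genotypes were apart, and the cKO mean was 60.8% of that of the controls (log2 fold change -0.71, SE 0.07, limma adjusted p = 1.3e-04).

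The ratio of *Cux2* to *Cux1* reads within a mouse, which needs no scaling between mice, was 0.7, 0.675 and 0.685 in the controls and 0.357, 0.321 and 0.332 in the cKO mice. On the log2 scale this ratio was lower by 1.03 in cKO mice (-1.57 ± 0.08 against -0.54 ± 0.03, SD, n = 3; exact permutation test, two-sided, p = 0.1, adjusted p = 0.1 over the 3 ratios compared). All cKO mice were below all controls in this ratio, and 3 mice against 3 cannot give a smaller p. The loci of both overlap transcripts annotated on the other strand (*Gm16599* within *Cux1* and *Gm15637* at *Cux2*), a *Cux2* pseudogene entry lies inside the locus of *Cux2*, and the strand setting of the counting is not given in the sources used here, so reads of these transcripts may be part of the values.

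*Rorb*, which drives the clustering of layer 4 neurons into barrels and occupies chr19:19005095-19185686 of mm9 (minus strand), fell as far as *Cux2*. It had 25.7, 25.4 and 27 CPM in the controls and 8.49, 6.99 and 7.72 CPM in the cKO mice. Its controls were the most alike of the 9 genes, with a highest to lowest ratio of 1.06. The cKO mean was 29.7% of the control mean (log2 fold change -1.74, SE 0.10, limma adjusted p = 5.7e-06). The lowest read number behind any of these values was the 135 reads of *Rorb* in *Mef2c* cKO replicate 2.

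*Rora*, a paralog of *Rorb* that is also expressed in layer 4, had 54, 61.7 and 99.4 CPM in the controls and 35.9, 32.7 and 26.3 CPM in the cKO mice. It was decreased (log2 fold change -1.14, SE 0.20, limma adjusted p = 0.005), with control replicate 3 well above the other controls.

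*Lhx2* had a smaller decrease. It occupies chr2:38194801-38225253 of mm9 (plus strand), overlapping the antisense transcript *Gm13584*. Its level was 80.2, 85.1 and 75.4 CPM in the controls and 61.2, 56.1 and 57.3 CPM in the cKO mice. The cKO mean was 72.5% of the control mean (log2 fold change -0.46, SE 0.07, limma adjusted p = 0.001), with no overlap between the genotypes.

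Of the 4 LIM homeodomain relatives of *Lhx2* on the list (*Lhx1*, *Lhx5*, *Lhx6* and *Lhx9*), *Lhx6*, a factor of interneurons, was the one high enough to be tested. It had 14.3 ± 0.361 CPM (SD, n = 3) in controls and 13.5 ± 0.671 CPM (SD, n = 3) in cKO mice and did not pass (log2 fold change -0.08, SE 0.08, limma adjusted p = 0.589). *Lhx1*, *Lhx5* and *Lhx9* had mean levels of at most 0.541 CPM in either genotype. The adaptors of LIM proteins were unequal. *Ldb2* rose from 36.9 ± 1.78 to 71.9 ± 1.91 CPM (SD, n = 3; log2 fold change 0.96, SE 0.06, limma adjusted p = 1.5e-05), while *Ldb1* (log2 fold change 0.17, SE 0.07, limma adjusted p = 0.137) and the LIM-only gene *Lmo4* (log2 fold change 0.03, SE 0.08, limma adjusted p = 0.858) did not pass.

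The 3 POU genes, each with a single exon, are described in turn. *Pou3f1*, at chr4:124334896-124337899 of mm9 (plus strand), encodes a POU factor found in subsets of callosal and layer 5 neurons. It had 25.8, 23.5 and 23.5 CPM in the controls and 44.1, 43.3 and 42.1 CPM in the cKO mice. The cKO mice were 1.78-fold higher, with little spread in either genotype (log2 fold change 0.83, SE 0.07, limma adjusted p = 6.0e-05). A *Pou3f1* pseudogene entry on the same strand covers the whole gene in the annotation used for positions. How reads in this overlap were counted is not known.

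*Pou3f3*, at chr1:42753991-42757052 of mm9 (plus strand), had 99.8, 86.3 and 84.9 CPM in the controls and 111, 120 and 120 CPM in the cKO mice. It was higher in all cKO mice, by 1.3-fold (log2 fold change 0.38, SE 0.07, limma adjusted p = 0.008). *Pou3f2*, at chr4:22413791-22415480 of mm9 (minus strand), had 9.11, 10.3 and 8.96 CPM in the controls and 11.5, 12.6 and 9.81 CPM in the cKO mice. The lowest cKO mouse lay below the highest control, and the gene did not pass (log2 fold change 0.25, SE 0.12, limma adjusted p = 0.199, exact permutation test over the mice p = 0.2). Its standard error leaves room for a change as large as that of *Pou3f3*.

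Within a mouse, the ratio of *Pou3f2* to *Pou3f1* reads was 0.354, 0.437 and 0.381 in the controls and 0.262, 0.291 and 0.233 in the cKO mice, lower by 0.58 on the log2 scale. That of *Pou3f3* to *Pou3f1* was 3.87, 3.68 and 3.61 in the controls and 2.52, 2.78 and 2.85 in the cKO mice, lower by 0.46 on the log2 scale. In both ratios the genotypes did not overlap (exact permutation test, two-sided, p = 0.1, adjusted p = 0.1 over the 3 ratios compared). *Pou3f4*, the remaining gene of the class, was near the lower limit of the test, with 1.12, 1.13 and 1.14 CPM in the controls and 2.75, 1.71 and 2 CPM in the cKO mice, and passed as increased (log2 fold change 0.84, SE 0.20, limma adjusted p = 0.020).

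*Mdga1* showed the widest increase of the 9 genes. It encodes a membrane-anchored immunoglobulin protein of upper-layer neurons that binds neuroligins and limits synapse formation, and it occupies chr17:29964901-30107032 of mm9 (minus strand). It had 10.7, 13.2 and 10.3 CPM in control replicates 1, 2 and 3 and 88.7, 71.2 and 71.2 CPM in *Mef2c* cKO replicates 1, 2 and 3. The cKO mean of 77 ± 10.1 CPM (SD, n = 3) was 6.76-fold the control mean of 11.4 ± 1.6 CPM (SD, n = 3) (log2 fold change 2.75, SE 0.12, limma adjusted p = 2.1e-06). Only 12 of the 14609 genes tested had a more positive log2 fold change. The antisense transcript *Gm16758* lies within the locus of *Mdga1*.

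Its paralog *Mdga2*, with 103 ± 11.9 CPM (SD, n = 3) in controls and 92.5 ± 6.26 CPM (SD, n = 3) in cKO mice, did not pass (log2 fold change -0.15, SE 0.09, limma adjusted p = 0.311). Among the neuroligins, the postsynaptic adhesion proteins that MDGA proteins bind, *Nlgn1* was decreased (log2 fold change -0.75, SE 0.08, limma adjusted p = 2.1e-04), while *Nlgn2* (log2 fold change -0.09, SE 0.06, limma adjusted p = 0.395) and *Nlgn3* (log2 fold change 0.17, SE 0.07, limma adjusted p = 0.109) did not pass.

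**Figure D2:**
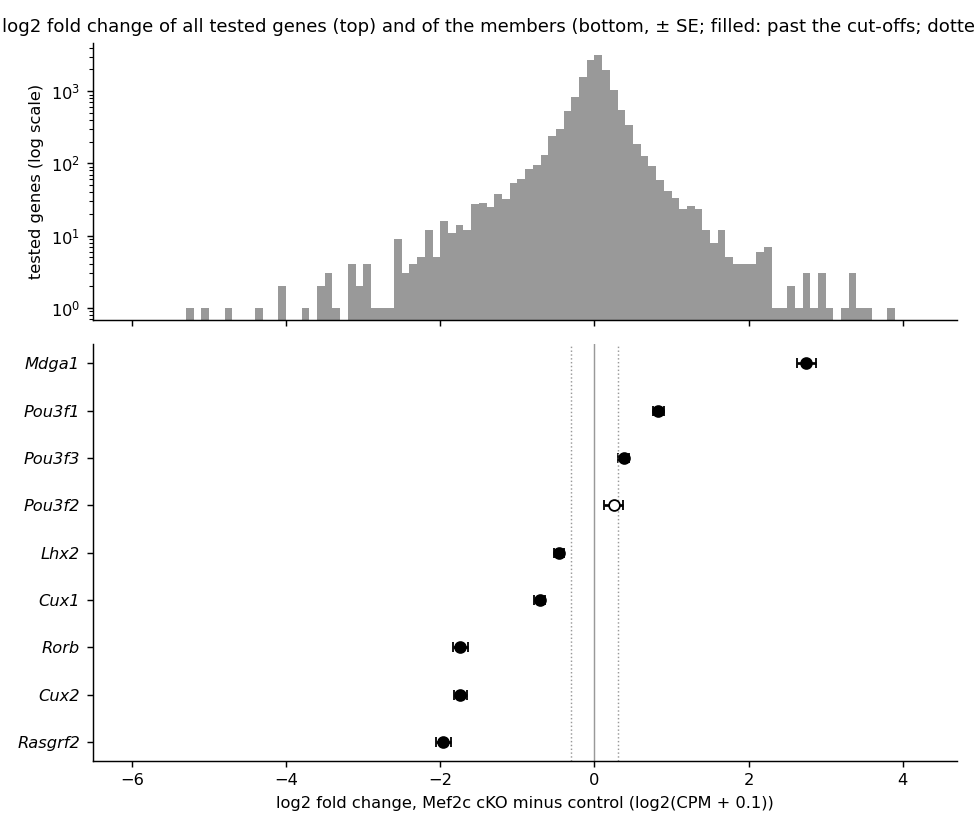
Number of tested genes by log2 fold change (top, log scale) and the log2 fold change of each of the 9 genes with its standard error (bottom), as Mef2c cKO minus control. *Mdga1* at 2.75 and *Rasgrf2* at -1.96 lie in the outer tails of the 14609 genes, and *Pou3f2* (open point) at 0.25 lies inside the cut-off of 0.3.

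Levels of different genes can be set side by side only per length. For this the CPM was divided by the exon length in kilobases from the mm9 GENCODE annotation, which is not the annotation of the authors, with the same length in every mouse. In controls, *Pou3f3* was highest with 29.5 ± 2.68 scaled reads per kilobase (SD, n = 3), followed by *Lhx2* with 25.7 ± 1.56, *Rasgrf2* with 19.6 ± 2.2, *Cux1* with 18.4 ± 1.43, *Cux2* with 12 ± 0.725, *Pou3f1* with 8.08 ± 0.432, *Pou3f2* with 5.59 ± 0.421, *Rorb* with 2.35 ± 0.0777 and *Mdga1* with 1.21 ± 0.17. Of these neighbours, only *Rasgrf2* and *Cux1* overlapped between mice.

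In cKO mice the order on the same scale was *Pou3f3* with 38.2 ± 1.75 (SD, n = 3), *Lhx2* with 18.7 ± 0.852, *Pou3f1* with 14.4 ± 0.326, *Cux1* with 11.2 ± 0.365, *Mdga1* with 8.2 ± 1.07, *Pou3f2* with 6.69 ± 0.826, *Rasgrf2* with 5.04 ± 0.514, *Cux2* with 3.59 ± 0.312 and *Rorb* with 0.698 ± 0.0679. No neighbours overlapped between mice. *Mdga1*, the lowest of the 9 in controls, was above *Rasgrf2* and *Cux2* in every cKO mouse. The level of *Pou3f2* rests on an annotated exon of only 1690 bases.

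**Figure D3:**
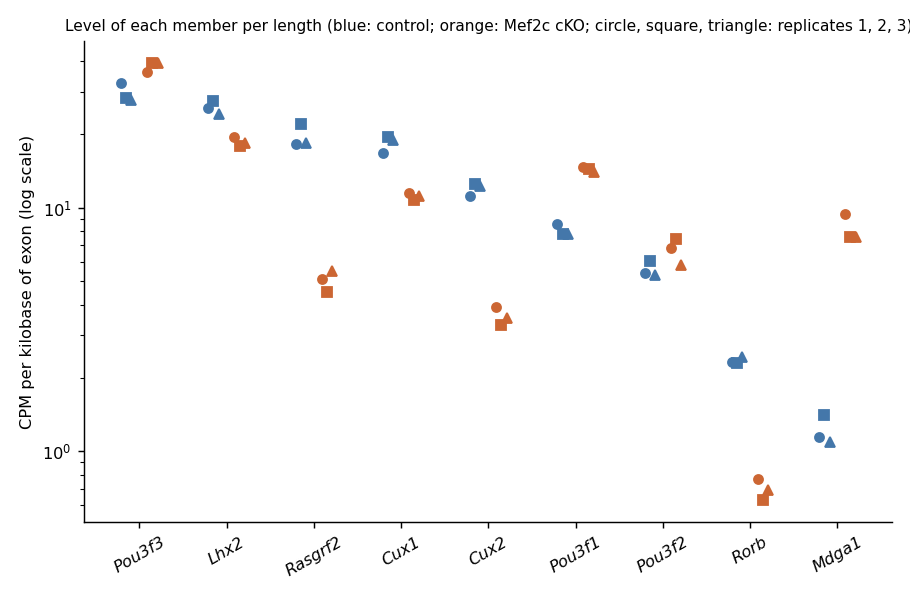
Scaled reads (CPM) per kilobase of exon (log scale) of the 9 genes in each mouse, ordered by the control mean. *Rasgrf2* moves from 19.6 in controls to 5.04 in Mef2c cKO mice, and *Mdga1* from 1.21 to 8.2.

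The 21 other upper-layer and callosal genes of the list were also divided. Of these, 8 were decreased, 6 were increased and 7 did not pass, with a median log2 fold change of 0.00. Among the decreased genes, *Cartpt*, a neuropeptide precursor, had 5.73, 9.35 and 5.61 CPM in the controls and 0.855, 0.517 and 0.591 CPM in the cKO mice (log2 fold change -3.20, SE 0.25, limma adjusted p = 3.4e-05). The netrin receptor gene *Unc5d* fell from 93.4 ± 4.61 to 29 ± 2.51 CPM (SD, n = 3), a log2 fold change of -1.68 that is near that of *Cux2* and *Rorb*. *Calb1*, which encodes the calcium-binding protein calbindin, and *Lamp5* changed by -1.41 (SE 0.16) and -0.95 (SE 0.11) on the log2 scale.

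Among the increased genes of this list, *Epha3* and *Epha6*, receptors for ephrins in axon guidance, had log2 fold changes of 1.27 (SE 0.17) and 1.07 (SE 0.10), and *Nrp1*, a receptor for semaphorins, had one of 0.54 (SE 0.10). *Wfs1* had 53.8, 66.6 and 54.8 CPM in the controls and 123, 96.7 and 195 CPM in the cKO mice (log2 fold change 1.18, SE 0.21, limma adjusted p = 0.005). *Wfs1* is also on the hippocampus list, whose summed level was 184 to 210 CPM in controls and 245 to 384 CPM in cKO mice, *Wfs1* itself included, with 4 of its 10 genes increased, 2 decreased and none at 0 in all mice. Besides *Wfs1*, the increased genes were *Spink8*, *Tdo2* and *Fibcd1* (log2 fold changes 3.86, 3.36 and 2.27). The decreased genes were *C1ql2* and *Pvrl3* (-1.40 and -0.81). Like *Wfs1*, *Pvrl3* is also on the list of other upper-layer and callosal genes and is counted among the decreased genes there. *Spink8* and *Tdo2* had low control means of 0.236 and 0.393 CPM. In each of the 4 increased genes all cKO mice were above all controls. The part of hippocampal tissue in these results was not tested. Among the partners, *Satb1*, a chromatin organiser, was decreased (log2 fold change -0.56, SE 0.07, limma adjusted p = 4.3e-04).

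Of the 17 paralogs and partners, 14 could be tested, and 3 were decreased, 4 increased and 7 did not pass, with a median log2 fold change of 0.02.

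The layer 4 list, which holds *Rora* but not *Rorb*, moved in 1 direction. Of its 10 genes, 8 were decreased and 2 did not pass, with a median log2 fold change of -1.05. This list too was written with earlier results of these data known. *Rspo1*, a secreted activator of Wnt signalling, had 25.2, 23.2 and 17.4 CPM in the controls and 0.611, 0.362 and 0.776 CPM in the cKO mice (log2 fold change -5.04, SE 0.24, limma adjusted p = 2.7e-06). *Scnn1a*, a sodium channel subunit, changed by -2.56 (SE 0.14), the potassium channel gene *Kcnh5* by -2.46 (SE 0.12) and *Whrn* by -1.42 (SE 0.11) on the log2 scale. In each of these 4 genes all cKO mice were below all controls. The summed level of the layer 4 list was 616 to 682 CPM in controls and 374 to 387 CPM in cKO mice, against 629 to 688 and 459 to 489 CPM for the 9 upper-layer and callosal genes together.

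The 20 deep-layer genes served as the comparison within the cortex. Of the 18 that could be tested, 4 were decreased, 4 were increased and 10 did not pass, with a median log2 fold change of 0.19. *Tbr1* and *Ntsr1*, of layer 6 neurons, rose by 0.69 (SE 0.11) and 0.67 (SE 0.10) on the log2 scale, *Ldb2* by 0.96 (SE 0.06) and *Nxph4*, of layer 6b, by 1.24 (SE 0.21). *Fezf2* and *Etv1*, of layer 5 neurons, had log2 fold changes of -0.46 (SE 0.12) and -0.43 (SE 0.10), *Fam84b* had one of -0.48 (SE 0.14) and *Pamr1* one of -2.31 (SE 0.07). *Pcp4* is listed at 0 in all 6 tables, although adult cortex is known to express it, so the 0 may not be a measurement. No test between the lists was made, and the counts describe these genes.

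**Figure D4:**
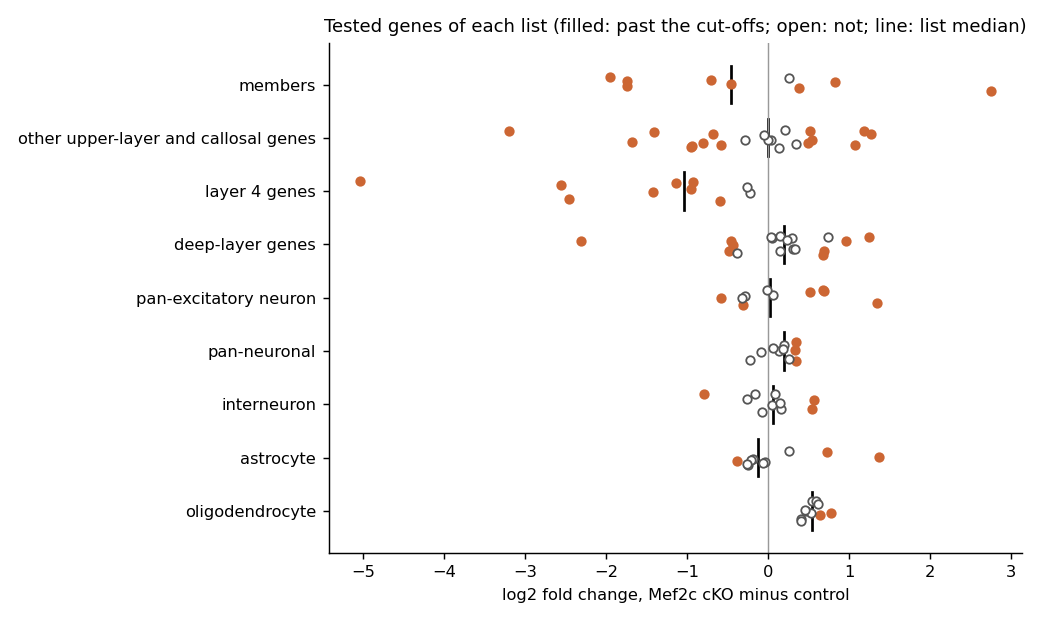
Log2 fold change (Mef2c cKO minus control) of the tested genes of each list, with genes past the cut-offs filled and the list median as a line. All layer 4 genes lie below 0, from -5.04 to -0.23, while the 9 upper-layer and callosal genes spread from -1.96 to 2.75.

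Markers of other cells and regions were summed in each mouse, and since a few abundant genes dominate a sum, the calls by gene are given beside it. Pan-excitatory genes summed to 6272 to 7419 CPM in controls and 6396 to 7451 CPM in cKO mice, while 4 of the 10 were increased and 2 decreased. Among these, *Neurod6*, a transcription factor of excitatory neurons, was 2.51-fold higher in cKO mice (log2 fold change 1.34, SE 0.13, limma adjusted p = 1.4e-04). Interneuron genes summed to 1494 to 1590 and 1464 to 1497 CPM, with 2 of 10 increased (*Sst* and *Npy*, log2 fold changes 0.57 and 0.54) and *Pvalb*, of fast-spiking interneurons, decreased to 57.7% of the control mean (log2 fold change -0.80, SE 0.09, limma adjusted p = 3.0e-04). The pan-neuronal sum (8067 to 9065 against 9732 to 10329 CPM, 3 of 10 genes increased) and the oligodendrocyte precursor sum (226 to 245 against 259 to 295 CPM, 2 of 6 increased) were higher in all cKO mice.

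The astrocyte sum was lower in all cKO mice (4922 to 5226 against 4352 to 4621 CPM), but most of it is the glutamate transporter gene *Slc1a2*, which did not pass (log2 fold change -0.25, SE 0.07). By gene, 1 of the 10 astrocyte genes was decreased (*Aldh1l1*, log2 fold change -0.39) and 2 were increased, *Gfap*, an intermediate filament of reactive astrocytes (log2 fold change 1.37, SE 0.15), and the water channel gene *Aqp4* (log2 fold change 0.73, SE 0.05). The thalamus sum was also lower in all cKO mice (79.3 to 90 against 64.9 to 73.1 CPM), with 3 of the 8 genes tested decreased and *Prkcd* increased (log2 fold change 0.55, SE 0.15). The sums overlapped between genotypes for oligodendrocytes (3373 to 5534 against 5457 to 7033 CPM, 2 of 10 genes increased), microglia (488 to 823 against 365 to 613 CPM), endothelial and mural cells (305 to 337 against 291 to 311 CPM), the striatum (260 to 336 against 215 to 509 CPM, 1 of 10 increased) and the choroid plexus and ependyma (391 to 508 against 327 to 429 CPM, 1 of 6 tested increased). None of these markers was at 0 in all mice, and their part in the results for the 9 genes was not tested.

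In the deposited RPKM values themselves, the genotypes overlapped in 7 of the 9 genes, all but *Rorb* and *Mdga1*. The lengths that the recovered reads imply for *Rorb*, for example, ran from 1338 bases in control replicate 1 to 161705 bases in *Mef2c* cKO replicate 2, and its deposited RPKM were 19.2, 4.06 and 1.64 in the controls and 0.662, 0.0432 and 0.673 in the cKO mice. The highest RPKM of *Rorb* was 445 times the lowest. For *Cux2* they were 16.3, 1.7 and 6.41 in the controls and 8.78, 18.2 and 4.93 in the cKO mice, with the genotypes overlapping. For any pair of mice of 1 genotype, log2 ratios over the genes tested had an SD of 2.41 to 2.49 in the deposited RPKM and of 0.24 to 0.31 in the CPM from recovered reads.

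**Figure D5:**
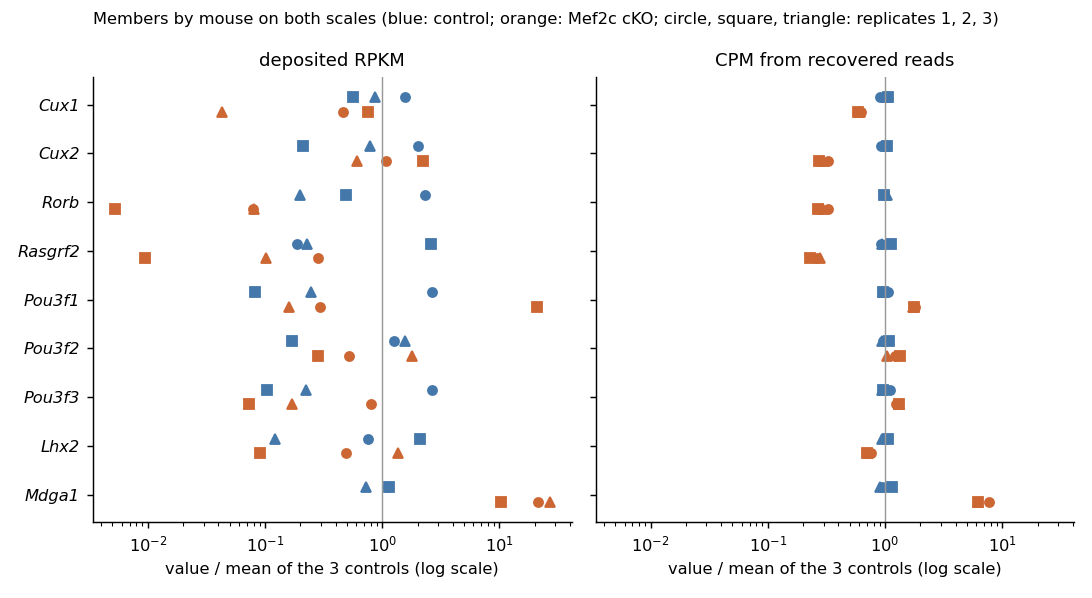
Value of each of the 9 genes in each mouse over the mean of the 3 controls (log scale), in the deposited RPKM (left) and in the CPM from recovered reads (right). On the left the highest of the 6 mice is 10.6 to 445 times the lowest, and on the right the mice of 1 genotype lie within 1.29-fold of each other in every gene.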

How the data were processed

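Per the labels and the methods of the study, polyA RNA of 6 cortices was sequenced as directional libraries, and the authors used TopHat and Bowtie for alignment to mm9 and HTSeq for the reads per gene, from which RPKM were calculated. The deposited values are RPKM, with 1 table per mouse. Strand setting and tool versions are not given in the sources used here. In each table the length behind the RPKM repeats in a fixed cycle (65 to 296 places) down the rows in order of gene identifier. Reads and sample totals were recovered from this cycle as whole numbers, for 99.77% to 99.80% of the values above 0, and sum to 99.92% to 99.93% of the totals. A row was kept only where every value was whole, so that 48 of 21759 rows were left out. The 92 rows without a gene name (0.05% to 0.07% of the totals) stayed out of the test. In 3 simulated tables all 3 totals and cycles came out right, and of the values above 0 at least 99.67% were recovered, 100% of them correctly. These tables were built with cycled lengths and with reads drawn around the recovered ones. They therefore test the procedure, and cannot show whether the deposited tables follow that scheme.

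CPM (reads over the sample total, with no length) were compared with limma 3.58.1 (lmFit, eBayes with a variance trend) in R 4.3.3 on log2(CPM + 0.1). This scale understates changes of low genes. Tested on simulated data of 14528 genes of which 198 were changed, the fit called 97% of these and 6 others. This share is pooled over the simulated sizes of change, all of them larger than the differences of *Cux1*, *Lhx2*, *Pou3f2* and *Pou3f3*. Its value for differences as small as those of these genes was not tested. Exact permutation tests used scipy 1.17.1 in Python 3.11.15 with numpy 2.4.6 and pandas 2.3.3, and plots matplotlib 3.10.9. Gene positions come from GENCODE on NCBIM37 (mm9), and promoters from RefSeq on GRCm38.p6, and the builds were not mixed. The 9 genes, the gene lists and the tests were chosen with earlier results of these data known. Named from the lists were the paralogs, apart from list genes that are not reported here, and up to 4 genes per direction with the largest absolute log2 fold change past the cut-offs, while *Ldb1*, *Lmo4*, *Nlgn2*, *Nlgn3*, *Pcp4* and the single genes of the cell type lists were named after their values had been seen. *Gm* genes come from the annotation alone. The 18 alternatives were other pseudocounts, filters, scalings, weights and cut-offs, the deposited RPKM, the replicate block, the 12-week mice alone and each mouse left out.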

Additional observations from a re-analysis of the deposited data

How the results depend on the processing

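In 16 of the 18 alternatives, the same 5 genes were called decreased and the same 3 increased, and *Pou3f2* did not pass. Among these 16, the filter for a recovered count in all 6 mice could not differ from the main fit. Rows with a missing count had already been left out. With 1 mouse left out at a time, the number of genes called was 1653 to 1866 and that of the 9 genes stayed at 8. The log2 fold change then ranged from -0.78 to -0.67 for *Cux1*, -1.81 to -1.68 for *Cux2*, -1.81 to -1.67 for *Rorb*, -2.02 to -1.87 for *Rasgrf2*, 0.81 to 0.87 for *Pou3f1*, 0.17 to 0.35 for *Pou3f2*, 0.33 to 0.45 for *Pou3f3*, -0.51 to -0.42 for *Lhx2* and 2.64 to 2.86 for *Mdga1*. The highest limma adjusted p of *Pou3f3* in these fits was 0.035, without control replicate 2.

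Raising the fold cut-off to 1 on the log2 scale left 472 genes and 4 of the 9 (*Cux2*, *Rorb*, *Rasgrf2* and *Mdga1*), since *Cux1* (-0.71), *Pou3f1* (0.83), *Pou3f3* (0.38) and *Lhx2* (-0.46) are below it. In the deposited RPKM, 14 of 7974 genes and 0 of the 6 of these genes that could be tested were called. The log2 fold changes were then -1.85 for *Cux1*, -3.57 for *Rorb*, -2.73 for *Rasgrf2* and 3.80 for *Mdga1*, and the direction turned for *Cux2* (0.70) and *Pou3f3* (-0.83), with limma adjusted p from 0.317 to 0.953. The lengths behind these values differ between mice.

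With the replicate number as a block, 1693 genes were called and the calls of the 9 genes did not change. The numbers do not pair the mice by the check made, as deviations from the group means of same-numbered mice correlated at -0.176, -0.109 and -0.0816. Depth limits the low values most, such as those of *Rorb* in *Mef2c* cKO replicate 2 with 135 reads.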
